A study of Mus musculus with 32 samples.

Results

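The lysosomal proteases described here are 10 genes: the cathepsins Ctsa, Ctsb, Ctsc, Ctsd, Ctsh, Ctsk, Ctsl, Ctss and Ctsz, and legumain, Lgmn. They were taken by gene symbol from a table of 55487 genes measured in whole mouse liver. The choice of these genes was made with earlier results of these data known. All 10 were among the 14903 genes with enough reads to test. The 32 libraries were polyA mRNA libraries of liver from 2 genotypes, wild type (WT) and FAAH S268D. In the latter 1 residue of fatty acid amide hydrolase is replaced, an enzyme that cleaves anandamide and N-acyl taurines. The diets are labelled NASH and NASH-AA. The series text gives 28 weeks on HFFC, with or without ARA, and all 4 groups share that base diet: WT on NASH, WT on NASH-AA, FAAH S268D on NASH and FAAH S268D on NASH-AA, with 8 libraries each. The sources used here do not give strain, sex or age. Nothing in them says that the libraries of a group came from separate mice, so p-values measure the spread between these libraries. No group on ordinary chow is among them, so no level here can be set against a healthy liver.

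Lysosomal proteases are made as inactive precursors, carried to the lysosome and cut there into active enzymes that break down proteins taken up or recycled by the cell. Most cathepsins are cysteine proteases related to papain, cathepsin D is an aspartic protease, cathepsin A a serine carboxypeptidase, and legumain a cysteine protease that cuts after asparagine and processes several of the others. All cells hold such enzymes, but macrophages hold many of them, and cathepsin S is made mainly by cells that present antigen. In liver, cathepsin B has been studied in hepatocyte injury and cathepsins D and S in macrophages and fibrosis. The measurements are of mRNA and say nothing of precursor cleavage or enzyme activity.

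The promoters were searched because members that move together could share letters upstream of their starts. The searched stretch was the 250 bases before each RefSeq start (GRCm38.p6), on both strands. Of the 10 members, 8 had a promoter in the table, with 10 starts between them. The motif CACGTG, the E-box core read by TFEB and related factors of lysosome genes, was found at 4 of these 10 starts, in Ctsa, Ctsd, Ctsl and Lgmn, against 6.02% of 32851 promoters of the same length. The longer form, that core with GT before it and AC after it, was at 0 of 10 starts and in 0.24% of all promoters. GAGGAAGT, a form of the site of the myeloid factor PU.1, was at 1 of 10, that of Ctsc, and in 2.44% of all. The windows with a match are given 5′ to 3′ on the gene's strand, with the motif in capitals. All 4 genes with an E-box match share a limit: the stretch that holds the match lies within the annotated gene, in full for Ctsa, Ctsl and Lgmn and for 211 of 250 bases for Ctsd. The Ctsa window and the second Ctsd window are wholly in exons of their own gene. Ctsa and Lgmn each also had another start, nearer the annotated 5′ end of the gene, with no match.
Ctsd, chr7:142388055-142388077, minus strand: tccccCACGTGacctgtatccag
Ctsd, chr7:142387908-142387937, minus strand: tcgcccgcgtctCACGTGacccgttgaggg
Lgmn, chr12:102439124-102439153, minus strand: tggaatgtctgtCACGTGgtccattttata
Ctsl, chr13:64370739-64370768, minus strand: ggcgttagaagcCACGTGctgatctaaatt
Ctsa, chr2:164833749-164833772, plus strand: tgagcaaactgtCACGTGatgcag
Ctsc, chr7:88277922-88277953, plus strand, with the PU.1 form on the other strand: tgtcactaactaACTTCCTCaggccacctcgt
The Ctss promoter is shown whole, since that gene had the largest fitted difference of the 10. It held none of the 3 motifs and was 44.8% G and C.
Ctss, chr3:95526536-95526785, plus strand: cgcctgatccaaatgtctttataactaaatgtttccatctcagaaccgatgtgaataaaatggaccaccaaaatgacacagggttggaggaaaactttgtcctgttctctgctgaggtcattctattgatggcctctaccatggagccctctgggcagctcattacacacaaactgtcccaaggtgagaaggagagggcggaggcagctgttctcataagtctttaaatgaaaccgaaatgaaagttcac
These are matches of letters. The E-box core was present both in genes that differed between genotypes, Lgmn and Ctsd, and in Ctsl, which did not pass in any comparison.

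The libraries held 3851626 to 34370179 counts, and their median was 22896702. Replicate 1 of FAAH S268D on NASH was the shallowest, and the next held 14743252. Levels are normalised CPM, that is, counts relative to library size after scaling between libraries. Faah itself, at chr4:115967145-116017926, was at 153 ± 15.5 CPM in WT and 186 ± 20.3 in FAAH S268D on NASH (SD, n = 8 each), and none of the 10 proteases lies on chromosome 4. Hepatocyte markers summed to between 57202 and 105874 CPM in the 32 libraries. Fold changes are log2 values ± SE from limma-voom over all 32 libraries, and adjusted p is Benjamini-Hochberg over all 14903 genes, with 0.05 as the threshold.

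The 10 mRNAs spanned a wide range of abundance in liver. Per kilobase of exon, and as a mean over the 32 libraries, Ctsd was highest at 208 ± 38.9 CPM per kb (SD), followed by Ctsz at 175 ± 24.2 and Ctsb at 120 ± 17.3. Ctsl stood at 71.6 ± 6.43, Lgmn at 53.5 ± 17.5, Ctss at 50.2 ± 24, Ctsh at 44.9 ± 5.11 and Ctsa at 36.6 ± 4.79. Ctsc was lower, at 13.1 ± 3.14, and Ctsk, known best from osteoclasts, lowest at 0.922 ± 0.403. Neighbours in this order from Ctsd down to Ctsc had overlapping ranges over the libraries, with the exception of Ctsa and Ctsc. Ctsa was never below 26.9 CPM per kb and Ctsc never above 20.5. Ctsk rested on 6 to 79 reads a library, whereas each of the others had at least 231. Ctss varied most among the well-measured members, 4.04-fold from the lowest to the highest library within WT on NASH, and Ctsl least, 1.2-fold in the same group.

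**Figure D1:**
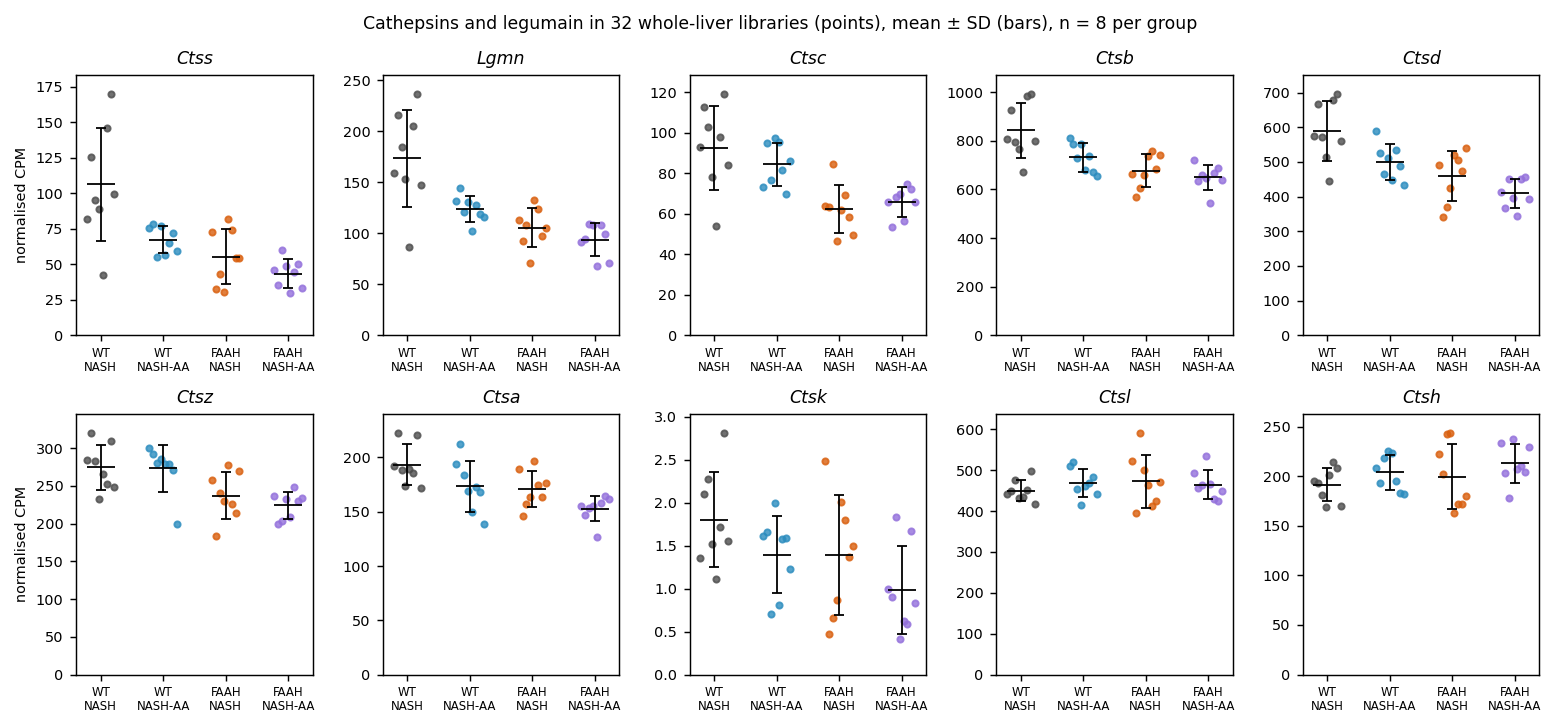
Normalised CPM (vertical axes, from 0) of the 10 proteases in each library, by group. Each point is a library and bars are mean ± SD (n = 8). The WT NASH group reaches highest for Ctss and Lgmn, and its replicate 5 is the lowest library of that group for both. The group means of Ctsl and Ctsh stay level.

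The first comparison asks what the FAAH substitution changed on the NASH diet. Of the 10 proteases, 5 were lower in FAAH S268D and 0 were higher: Ctss, Lgmn, Ctsc, Ctsd and Ctsb. Over all genes, 9.19% passed in this comparison, 6.30% lower and 2.89% higher. The median log2 fold change of the 10 was -0.34, against 0.00 over all genes tested. Of the 5, Ctsd is an aspartic protease and the others are cysteine proteases. In size Ctsb fell by 19.5% and Ctss by 48.0%, the ends of the range. In whole liver, fewer cells of a type and less RNA per cell cannot be told apart.

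Cathepsin S (Ctss, ENSMUSG00000038642, chr3:95526786-95556403, GRCm38), which trims the invariant chain from MHC class II molecules in antigen-presenting cells, differed most. In WT on NASH its lowest, median and highest levels were 42.1, 97.4 and 170 CPM. In FAAH S268D on NASH they were 30.5, 54.3 and 81.7 CPM. The groups overlapped through replicate 5 of WT, at 42.1 CPM. The other 7 WT libraries, the lowest of them at 82.1, lay above all 8 FAAH S268D libraries. The log2 fold change was -0.94 ± 0.22 (adjusted p = 0.00782, limma-voom). Within FAAH S268D, replicates 4, 2 and 3 were lowest, at 30.5, 32.8 and 43.3 CPM.

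Legumain (Lgmn, ENSMUSG00000021190, chr12:102394084-102439813), the asparaginyl endopeptidase, followed the same libraries. Its levels were 86.4, 172 and 237 CPM (lowest, median, highest) in WT on NASH and 71.0, 106 and 133 CPM in FAAH S268D on NASH. Again replicate 5 was the lone WT library inside the mutant range, and the other 7, from 147 CPM upward, were above it. The log2 fold change was -0.69 ± 0.15 (adjusted p = 0.00548, limma-voom), the smallest p of the 10.

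Cathepsin C (Ctsc, ENSMUSG00000030560, chr7:88278085-88310888), or dipeptidyl peptidase I, activates the serine proteases of neutrophil, mast cell and cytotoxic granules. It ranged over 53.7, 95.1 and 119 CPM in WT on NASH and over 46.5, 62.6 and 84.7 CPM in FAAH S268D on NASH. Its groups overlapped more, since 3 WT libraries (replicates 5, 4 and 8) lay below the highest mutant library, replicate 3. That mutant library was among the lowest for Ctss, Ctsb and Ctsd. The log2 fold change of Ctsc was -0.56 ± 0.13 (adjusted p = 0.00686, limma-voom). Of 11 granule serine proteases that it could activate, 2 had enough reads to test; granzyme B, Gzmb, was lower (-1.22 ± 0.38, adjusted p = 0.0387) at a mean of 0.610 CPM, and Prtn3 had -0.63 ± 0.54 (adjusted p = 0.492).

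Cathepsin D (Ctsd, ENSMUSG00000007891, chr7:142375911-142388038), the major aspartic protease of lysosomes, had smaller shifts at high abundance. It ranged over 445, 574 and 696 CPM in WT on NASH and over 342, 481 and 540 CPM in FAAH S268D on NASH. The 2 lowest WT libraries, replicates 5 and 4, lay within the mutant range. The log2 fold change was -0.36 ± 0.10 (adjusted p = 0.0172, limma-voom). Ctsd shares 33.2% of its 31-base transcript words with Gm49369, a predicted gene on the same strand, so its reads may have been divided between both. Gm49369 stood at 26.7 ± 8.51 CPM in WT on NASH and 23.2 ± 16 in FAAH S268D on NASH.

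Cathepsin B (Ctsb, ENSMUSG00000021939, chr14:63122462-63145923), a cysteine protease found in hepatocytes and macrophages alike, was the most counted of the 10. It ranged over 674, 804 and 994 CPM in WT on NASH and over 570, 674 and 759 CPM in FAAH S268D on NASH. All WT libraries but replicate 5 were above all mutant libraries, the next lowest being replicate 4 at 765 CPM. The log2 fold change was -0.31 ± 0.08 (adjusted p = 0.00959, limma-voom).

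The other 5 proteases did not pass. Cathepsin Z (chr2:174427493-174439039), a carboxypeptidase, had -0.21 ± 0.08 (adjusted p = 0.103), with 274 ± 30.3 CPM in WT and 237 ± 31.2 in FAAH S268D on NASH. Cathepsin A (chr2:164832873-164841032), which also protects lysosomal beta-galactosidase and neuraminidase, had -0.18 ± 0.08 (adjusted p = 0.140), at 193 ± 18.9 and 171 ± 16.9 CPM. Cathepsin K (chr3:95499256-95509362), a collagen-degrading enzyme, had -0.55 ± 0.28 (adjusted p = 0.210), at 1.80 ± 0.555 and 1.39 ± 0.696 CPM, and its SD within groups, 0.65 on the log2 scale, was the widest of the 10. Cathepsin L (chr13:64359337-64370890), a widely expressed endopeptidase, had 0.07 ± 0.07 (adjusted p = 0.568), at 450 ± 26 and 473 ± 65.0 CPM. Cathepsin H (chr9:90054152-90076089), an aminopeptidase, had 0.05 ± 0.08 (adjusted p = 0.723), at 192 ± 17 and 200 ± 32.8 CPM. By gene span, Ctsa, Ctsb, Ctsc, Ctsl and Ctsz overlap genes on the opposite strand (Pltp and Neurl2, Fdft1, Gm26522, Gm47123, and Nelfcd). Of 31-base transcript words, Ctsl shared 25.8% with Gm47123, Ctsb 12.4% with Fdft1 and Ctsa 7.67% with Pltp. Where the counting did not use strand, reads of these shared stretches cannot be told apart. Ctsc shared 0.57% with its closest gene, Gm38265, and Ctsz shared 0% with any gene. For Ctsl and Ctsh the sign turned with plain CPM, to -0.08 and -0.10, because that scaling moved the median of all genes to -0.14. Relative to that median they were at 0.06 and 0.04. That scaling also turned the split of all genes past the threshold from 431 higher and 939 lower to 163 and 2248.

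**Figure D2:**
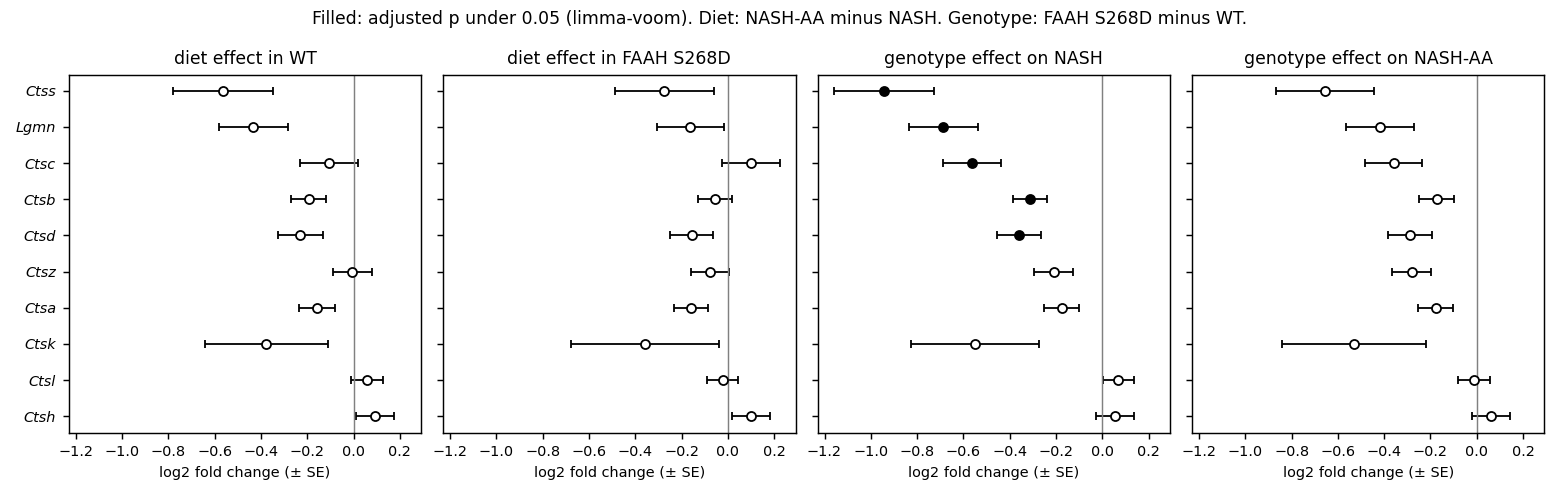
Log2 fold change ± SE (horizontal axes) of the 10 proteases in the 4 comparisons between 2 groups. Filled points passed an adjusted p of 0.05, and they are the 5 in the genotype comparison on NASH. Ctsl and Ctsh lie at or near 0 in all panels, with Ctsl at 0.07 and Ctsh at 0.05 in that comparison when scaled by TMM (and at -0.08 and -0.10 with plain CPM).

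The calls on the NASH diet rested on a spread shared by all 4 groups. With the 2 groups fitted alone, 0 of 10 passed, at adjusted p from 0.0773 for Lgmn to 0.107 for Ctsd among the 5, and 0.490% of all genes passed. In libraries numbered 1 to 16 by their labels, 4 of the 5 passed (all but Ctsd) beside 5.88% of all genes; in those numbered 17 to 32, with 4 WT and 3 mutant libraries, 0 passed beside 0.134%. The log2 fold change of Ctss was -1.05 ± 0.27 in the first range and -0.74 ± 0.34 in the second. That of Lgmn was -0.79 ± 0.16 and -0.54 ± 0.26. Ctsh had opposite signs in these ranges, at 0.23 ± 0.12 and -0.18 ± 0.09, and passed in neither.

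On the NASH-AA diet, 0 of 10 proteases passed between genotypes, and 0.658% of all genes did. At an unadjusted p under 0.05 there were 7 of 10, against 15.6% of all genes. The fitted values were negative for 9 of 10, with a median of -0.29. Ctsz had the smallest adjusted p, at -0.28 ± 0.08 (adjusted p = 0.112, limma-voom), and Ctss the largest size, at -0.65 ± 0.21 (adjusted p = 0.149). Ctss ranged over 55.2, 68.3 and 78.1 CPM in WT on NASH-AA and over 29.4, 45.3 and 59.8 CPM in FAAH S268D on NASH-AA. All 8 libraries of each genotype lay on their own side of the other's median, and the groups overlapped at their edges. Lgmn ranged over 102, 124 and 144 CPM in WT and over 68.1, 96.9 and 109 CPM in FAAH S268D, with a log2 fold change of -0.42 ± 0.14 (adjusted p = 0.172). Ctsc had -0.36 ± 0.12 (adjusted p = 0.172), Ctsd -0.29 ± 0.10 (adjusted p = 0.155), Ctsb -0.17 ± 0.07 (adjusted p = 0.256) and Ctsa -0.18 ± 0.08 (adjusted p = 0.254). Ctsk had -0.53 ± 0.31 (adjusted p = 0.423), Ctsl -0.01 ± 0.07 (adjusted p = 0.951) and Ctsh 0.06 ± 0.08 (adjusted p = 0.766). With these 2 groups fitted alone, 5 of 10 passed, Ctss, Ctsc, Lgmn, Ctsd and Ctsz (adjusted p from 0.0110 for Ctss to 0.0464 for Ctsz), beside 4.13% of all genes. Without replicate 8 of WT on NASH-AA, Ctsz passed at -0.34 ± 0.08 (adjusted p = 0.0208), beside 0.524% of all genes.

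In WT mice the NASH-AA diet left 0 of 10 proteases past the threshold, against 4.41% of all genes. At an unadjusted p under 0.05 there were 5 of 10 and 24.4% of all genes. Lgmn had the smallest adjusted p, at -0.43 ± 0.15 (adjusted p = 0.0761, limma-voom), falling short of the threshold. Ctss had -0.56 ± 0.22 (adjusted p = 0.103), Ctsb -0.19 ± 0.08 (adjusted p = 0.113), Ctsd -0.23 ± 0.10 (adjusted p = 0.141) and Ctsa -0.16 ± 0.08 (adjusted p = 0.200). Ctsz was level, at -0.01 ± 0.08, as were Ctsl at 0.06 ± 0.07 and Ctsh at 0.09 ± 0.08. Ctsc had -0.11 ± 0.13 and Ctsk -0.38 ± 0.27. The spread of Ctss in WT was 106 ± 40.04 CPM on NASH and 67.3 ± 9.44 on NASH-AA, so the NASH group held most of it. A single library, replicate 5 of WT on NASH, changed these calls. Without it, 4 of 10 passed, Lgmn at -0.57 ± 0.13 (adjusted p = 0.00344), Ctss at -0.74 ± 0.19 (adjusted p = 0.00941), Ctsb at -0.24 ± 0.07 (adjusted p = 0.0270) and Ctsd at -0.29 ± 0.09 (adjusted p = 0.0395), beside 14.7% of all genes. That library also had the lowest summed macrophage markers of its group, 435 CPM against a group median of 852, and the part of this in the result was not tested.

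In FAAH S268D mice the diet comparison gave 0 of 10, against 0.0939% of all genes. At an unadjusted p under 0.05 there was 1 of 10, Ctsa, and 12.4% of all genes. Ctsa had -0.16 ± 0.08 (adjusted p = 0.385, limma-voom), with means of 171 ± 16.9 CPM (NASH) and 153 ± 11.7 CPM (NASH-AA). Ctss had -0.28 ± 0.21 and Lgmn -0.16 ± 0.14. Ctsd had -0.16 ± 0.09, Ctsb -0.06 ± 0.07, Ctsz -0.08 ± 0.08, Ctsk -0.36 ± 0.32, Ctsl -0.02 ± 0.07, Ctsc 0.10 ± 0.12 and Ctsh 0.10 ± 0.08. The adjusted p of these 9 lay between 0.509 and 0.914.

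Whether the diet acted differently in both genotypes was tested as an interaction, in which 0 of 10 proteases and 0% of all genes passed. At an unadjusted p under 0.05 there were 0 of 10 proteases and 4.21% of all genes. The largest values were 0.29 ± 0.30 for Ctss (adjusted p = 0.914, limma-voom), 0.27 ± 0.21 for Lgmn (adjusted p = 0.906) and 0.20 ± 0.18 for Ctsc (adjusted p = 0.906). Ctsb had 0.14 ± 0.11 and Ctsd 0.07 ± 0.13. A difference between comparisons in which genes passed is therefore not shown for any of the 10.

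By group mean, 4 of the 5 proteases that passed, Ctss, Lgmn, Ctsb and Ctsd, ran in the same order: WT on NASH highest, then WT on NASH-AA, FAAH S268D on NASH, and FAAH S268D on NASH-AA lowest. For Ctss the means were 106 ± 40.04, 67.3 ± 9.44, 55.4 ± 19.3 and 43.5 ± 10.1 CPM. For Lgmn they were 174 ± 47.6, 124 ± 12.6, 105 ± 19 and 93.7 ± 16.4 CPM. Each step between neighbours in that order was within overlapping ranges. The step between the groups that differ in both genotype and diet was not tested. Ctsc differed in order, with 92.5 ± 20.8 and 84.3 ± 10.8 CPM in the 2 WT groups and 62.1 ± 11.9 and 65.7 ± 7.44 CPM in the 2 mutant groups. Summed over the 10, the proteases made up 2916 ± 361, 2629 ± 190, 2441 ± 199 and 2318 ± 138 CPM in the same order of groups, most of it from Ctsb, Ctsd and Ctsl.

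Markers of macrophages moved with these proteases. Of 14 monocyte and macrophage markers, 11 were lower in FAAH S268D on NASH, among them Cd68 (-1.05 ± 0.21, adjusted p = 0.00290), Mpeg1 (-0.67 ± 0.13, adjusted p = 0.00365) and Fcer1g (-0.88 ± 0.18, adjusted p = 0.00463). Their summed level ranged from 435 to 1089 CPM in WT on NASH, 459 to 633 in WT on NASH-AA, 281 to 603 in FAAH S268D on NASH and 269 to 494 in FAAH S268D on NASH-AA, and none was at 0 in any group. Of 12 markers of lipid-associated macrophages, the macrophages that gather in fatty liver, 9 were lower, such as Mmp12 (-2.47 ± 0.57), Lpl (-1.29 ± 0.31) and Itgax (-1.68 ± 0.42). Their summed level ranged from 453 to 1174, 407 to 635, 212 to 894 and 206 to 517 CPM in the same groups. Of 10 markers of Kupffer cells, the resident macrophages, 2 were lower, Clec1b (-0.72 ± 0.15) and Cd5l (-0.79 ± 0.19), with Slc40a1 at -0.33 ± 0.12 (adjusted p = 0.0652). Their sums ranged from 500 to 1041, 592 to 772, 445 to 745 and 373 to 665 CPM. Of 13 hepatocyte markers, 4 were higher and 1 lower, Cyp3a11 (-0.76 ± 0.20). Of 7 T and NK cell markers 4 were lower, of 10 dendritic cell markers 2, of 3 neutrophil markers 2, of 11 stellate cell and fibroblast markers 1 (Timp1), and of 7 cholangiocyte markers 0. Of 9 endothelial, 6 B and plasma cell, and 2 osteoclast and mast cell markers, 0 passed. Over all genes in this comparison, 6.30% were lower and 2.89% higher. The stellate cell and fibroblast sum ranged from 437 to 847 CPM in WT and from 299 to 947 in FAAH S268D on NASH. The part of these cells in the protease values was not tested.

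The members differed in which marker list they tracked over the 32 libraries. These correlations of log2 CPM are descriptions: libraries of a group share genotype and diet, and all libraries share the scaling. Lgmn and Ctss tracked the macrophage sum most closely, with Pearson's r of 0.97 and 0.95 (Spearman's rho 0.95 and 0.95) and 0.94 and 0.90 after group means were removed. Without the 2 libraries farthest from the median of the sum, r was 0.96 and 0.94. Ctsd tracked the lipid-associated macrophage sum (r = 0.94, rho = 0.93, without 2 libraries 0.93) more than the Kupffer cell sum (r = 0.58, rho = 0.55, without 2 libraries 0.55). For Ctsc, r with the macrophage sum was 0.80. After group means were removed it was 0.72, and 0.71 for the Kupffer cell sum. The order of Ctsc was opposite to that of Ctsd, with r = 0.82 for the Kupffer cell sum (rho = 0.83, without 2 libraries 0.86). For the lipid-associated sum Ctsc had r = 0.49 (rho = 0.44, without 2 libraries 0.55). Replicate 3 of FAAH S268D on NASH shows the contrast: it had the highest Kupffer cell sum of its group, 745 CPM, the highest Ctsc, 84.7 CPM, and the lowest lipid-associated sum, 212 CPM. Ctsh ran the other way, with r = 0.61 for the hepatocyte sum (rho = 0.60, without 2 libraries 0.65) and -0.54 for the lipid-associated sum (rho = -0.57, without 2 libraries -0.50). Ctsl stayed near 0 with all 4 sums, between -0.18 and 0.16. The difference between these correlations was not tested.

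**Figure D3:**
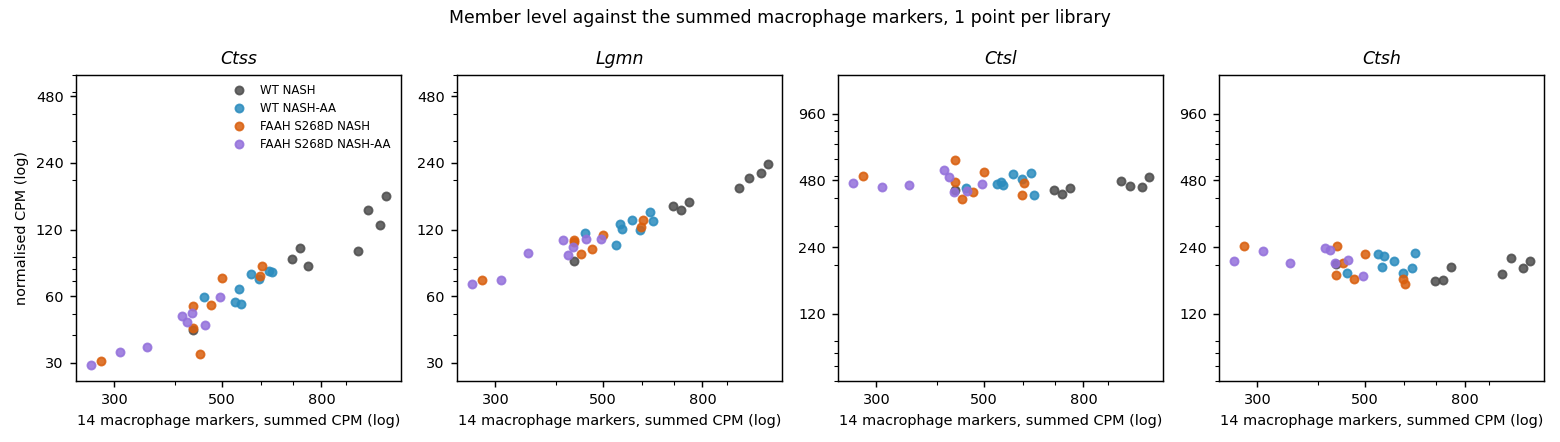
Level of Ctss, Lgmn, Ctsl and Ctsh (normalised CPM, log axis) against the summed CPM of 14 monocyte and macrophage markers (log axis), 1 point per library, coloured by group. Ctss and Lgmn climb with the marker sum across and within groups, over a range of 269 to 1089 CPM, while Ctsl shows little slope (r = -0.10) and Ctsh tends downward (r = -0.36, rho = -0.41).

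Among each other, all but Ctsl and Ctsh had positive correlations over the 32 libraries, from 0.39 for Ctsk with Ctsc upward. The closest pairs were Lgmn with Ctss (r = 0.95) and Ctsd with Ctsb (r = 0.95), and with group means removed these were 0.90 and 0.91. Ctsl had r between -0.04 and 0.27 with those 8, and Ctsh between -0.48 and 0.03, while with each other they had 0.45. Measured against Ctsl in the same library, the ratio of Ctss to Ctsl in CPM had medians of 0.221, 0.143, 0.122 and 0.0924 from WT on NASH to FAAH S268D on NASH-AA. The ratio of Ctss to the macrophage gene Cd68 had medians of 1.93, 1.98, 2.15 and 2.13, with ranges from 1.71 to 2.51 in WT on NASH and from 1.91 to 2.29 in FAAH S268D on NASH. Cd68 is itself among the genes most correlated with Ctss, and other macrophage genes gave wider ranges. Over Csf1r the ratio had medians of 0.795, 0.812, 0.774 and 0.739 and ranged from 0.337 to 1.07 in FAAH S268D on NASH. Over Adgre1 the medians were 2.48, 2.48, 2.81 and 2.43, with a range from 0.508 to 4.24 in that group. These denominators were chosen after values were seen.

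**Figure D4:**
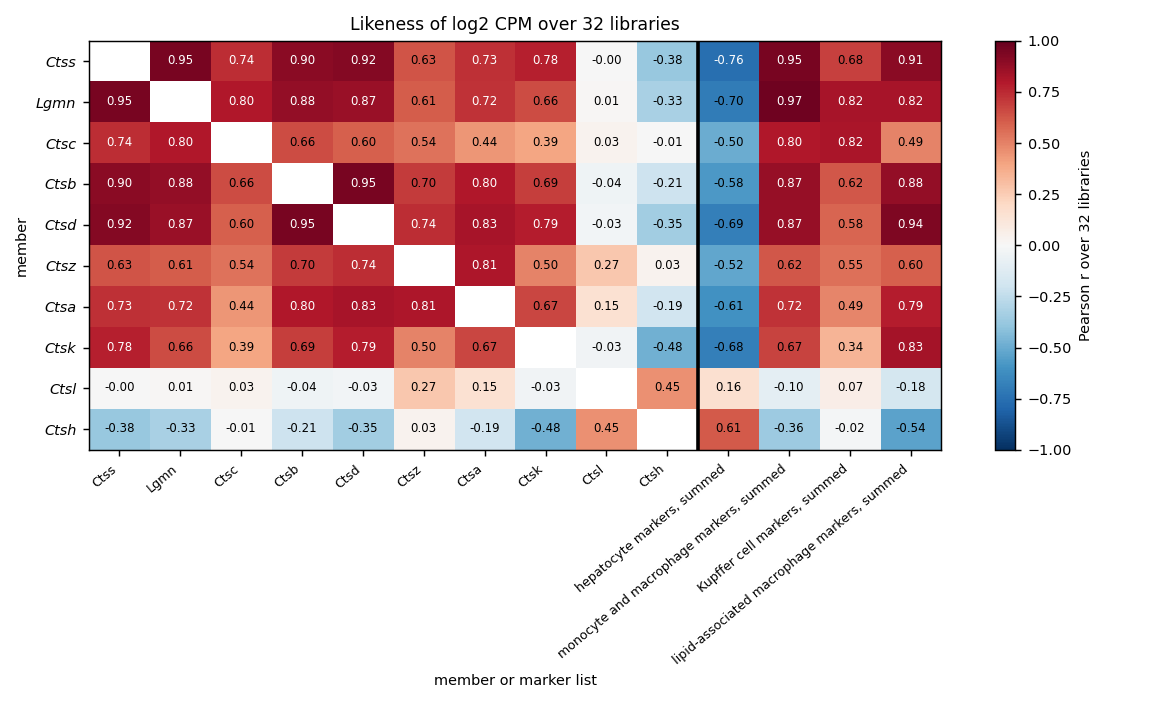
Pearson correlation of log2 CPM over 32 libraries between the 10 proteases (left of the line) and with 4 summed marker lists (right of the line). Red is positive and blue negative. Ctss and Lgmn reach 0.95 and 0.97 with the macrophage sum, Ctsd 0.94 with the lipid-associated sum, and Ctsl and Ctsh stand apart.

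Over 11871 genes and 32 libraries, named genes whose log2 CPM was most like that of each protease were as follows. Those given for Ctss are Csf2ra (r = 0.97) and Cd68 (r = 0.97), and for Lgmn Laptm5 (r = 0.98) and Fermt3 (r = 0.98). Ctsb was nearest to Pld3 (r = 0.95), Hexa (r = 0.93) and Tbxas1 (r = 0.92), and Ctsd to Psap (r = 0.95), Clec7a (r = 0.94) and Pld3 (r = 0.94). Ctsc was nearest to the Fc receptor gene Fcgr4 (r = 0.88), to Wfdc17 (r = 0.85) and to Fcgr3 (r = 0.84). Ctsk was nearest to Plod2 (r = 0.89), Timp1 (r = 0.88) and Pqlc3 (r = 0.87), the second an inhibitor of matrix metalloproteases. Ctsa was nearest to Mapk3 (r = 0.86), Npc2 (r = 0.85) and Gnai2 (r = 0.85), and Ctsz to H2-D1 (r = 0.78), Grn (r = 0.77) and Serinc2 (r = 0.76). Group means were not removed here, so differences between groups enter these correlations. Serinc2 had log2 fold changes between genotypes of -2.83 on NASH and -2.89 on NASH-AA. Ctsh was nearest to Ninj1 (r = 0.88), Msrb1 (r = 0.87) and Abhd14b (r = 0.87), and Ctsl to Hmox2 (r = 0.79), Nr1h2 (r = 0.72) and Dnajc7 (r = 0.70).

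Other lysosomal genes moved in both directions in FAAH S268D on NASH. Among all genes tested, 9.19% passed, 6.30% lower and 2.89% higher, and 50.1% of fitted values were positive. Fitted values were negative for 8 of 13 other proteases, 19 of 23 glycosidases, sulfatases and phosphatases, and 15 of 20 sorting genes. The same held for 9 of 12 lipid handling, 8 of 15 membrane and 11 of 18 pump genes. It held for 12 of 21 transcription factor and autophagy genes. Of 13 other lysosomal proteases, 2 were lower, Prcp (-0.58 ± 0.12, adjusted p = 0.00540) and Napsa (-1.02 ± 0.31, adjusted p = 0.0346), and 0 higher, with a list median of -0.10. Of 23 glycosidases, sulfatases and phosphatases, 3 were lower and 1 higher, with a median of -0.07. The lower ones were Gla (-0.49 ± 0.12), Gusb (-0.38 ± 0.10) and Hexa (-0.35 ± 0.10), and Fuca1 was higher (0.17 ± 0.05). Of 20 sorting and maturation genes, 3 were lower and 1 higher (median -0.06). Those lower were the saposin precursor Psap (-0.41 ± 0.09, adjusted p = 0.00686), progranulin, Grn (-0.33 ± 0.08, adjusted p = 0.00695), and Cln6 (-0.56 ± 0.18, adjusted p = 0.0487). The palmitoyl thioesterase Ppt1 was higher (0.35 ± 0.06, adjusted p = 0.000963), and was also higher on NASH-AA (0.40 ± 0.06, adjusted p = 0.000135). Position relative to the Faah gene was looked at only for the cathepsins and legumain. For Ppt1, Fuca1 and the other genes of these lists, a link to the Faah locus was not tested.

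Of 12 genes of lysosomal lipid handling, 3 were lower and 0 higher (median -0.18): Psap, acid ceramidase, Asah1 (-0.47 ± 0.11), and the cholesterol carrier Npc2 (-0.32 ± 0.10). Of 15 lysosomal membrane genes, 3 were lower and 0 higher (median -0.02): Laptm5 (-0.89 ± 0.20), Slc11a1 (-0.80 ± 0.18) and Litaf (-0.28 ± 0.09), the first 2 being genes of blood-derived cells. Of 18 subunits of the proton pump that acidifies the lysosome, 4 were lower and 0 higher (median -0.05). They were Atp6v1b2 (-0.35 ± 0.06), Atp6ap2 (-0.25 ± 0.07), Tcirg1 (-0.35 ± 0.10) and Atp6v0d2 (-1.32 ± 0.37), the last also in the lipid-associated macrophage list. Of 21 transcription factor and autophagy genes, 1 was lower, Tfec (-0.50 ± 0.14), and 1 higher, Atg5 (0.25 ± 0.07), with a median of 0.00.

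Genes that work with or against these proteases were also read in FAAH S268D on NASH, where 6.30% of all genes were lower and 2.89% higher. Of 11 inhibitors, 3 were lower and 0 higher (median -0.02): cystatin B, Cstb (-0.43 ± 0.14, adjusted p = 0.0409), Serpinb6a (-0.47 ± 0.14, adjusted p = 0.0379) and Serpina3g (-0.60 ± 0.15, adjusted p = 0.0124). Of 11 genes of the class II path whose invariant chain cathepsins S and L cut, 8 were lower and 0 higher, with a median of -1.10. Among them were the lysosomal thiol reductase Ifi30 (-0.75 ± 0.14, adjusted p = 0.00181), H2-DMa (-0.99 ± 0.25), H2-DMb1 (-1.13 ± 0.30) and H2-Eb1 (-1.25 ± 0.34). Endolysosomal toll-like receptors are cut by cathepsins and legumain. Of 6 genes in their list, 5 were lower and 0 higher (median -0.92). The receptors among them were Tlr13 (-1.25 ± 0.26, adjusted p = 0.00503), Tlr8 (-1.28 ± 0.30), Tlr9 (-1.01 ± 0.24) and Tlr7 (-0.83 ± 0.22). The other was Unc93b1, which is not itself a receptor. Of 17 extracellular proteases, their partners and collagens, 6 were lower and 1 higher (median -0.68). The lower ones included Plau (-1.09 ± 0.23), Mmp12 (-2.47 ± 0.57) and Plaur (-0.96 ± 0.28), and the higher one was Mmp19 (0.35 ± 0.09). Macrophages express many of the class II and toll-like receptor genes, and the part of the lower macrophage markers in these counts was not tested.

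**Figure D5:**
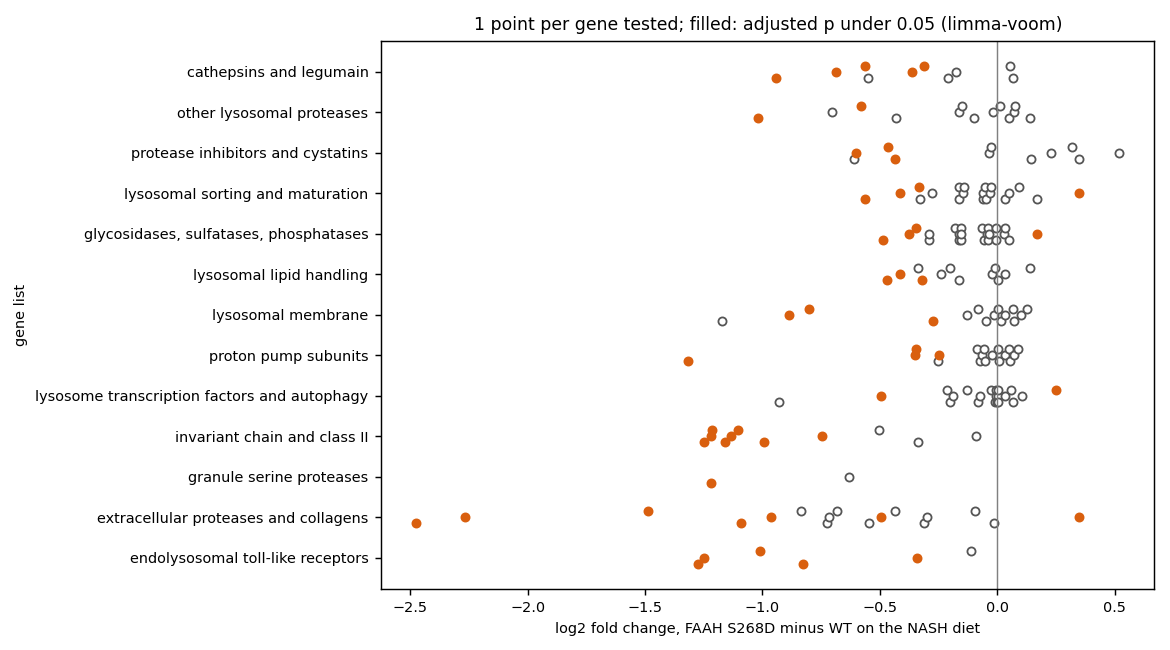
Log2 fold change of FAAH S268D minus WT on NASH (horizontal axis), 1 point per gene tested, by gene list. Filled points passed an adjusted p of 0.05. Genes of the class II and endolysosomal toll-like receptor lists all lie to the left of 0, with medians of -1.10 and -0.92. Most enzyme, pump and membrane genes of the lysosome lie close to 0.

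Over the lists together, each gene counted once, 26.9% of 167 genes tested passed in FAAH S268D on NASH, beside 9.19% of all genes. In WT on NASH-AA against NASH, 9 of 167 were lower and 1, Mmp19 (0.32 ± 0.09), was higher, or 5.99% beside 4.41% of all genes. Among the lower, Prcp had -0.54 ± 0.12 (adjusted p = 0.0175), Serpinb6a -0.55 ± 0.14 (adjusted p = 0.0309), Asah1 -0.35 ± 0.10 (adjusted p = 0.0493) and Tlr9 -0.92 ± 0.23 (adjusted p = 0.0267), and the others were Asrgl1, Atp6v1b2, Rragd, Plau and Mmp14. All 11 class II genes had negative values in that comparison, with a median of -0.80, and 0 passed. Between genotypes on NASH-AA, 3 of 167 passed, or 1.8% beside 0.658% of all genes: Ppt1 was higher, and Ifi30 (-0.57 ± 0.14, adjusted p = 0.0464) and Litaf (-0.47 ± 0.08, adjusted p = 0.00166) were lower. In FAAH S268D on NASH-AA against NASH, 0 of 167 passed, beside 0.0939% of all genes.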

How the data were processed

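Per the labels' protocols, TRIzol was used to extract whole-liver RNA, and libraries were prepared by Tecan's Universal Plus mRNA-seq kit. Trim Galore 0.6.7, UMI-tools 1.1.2, STAR 2.7.10 and GRCm38 were used per the submitters' processing notes. Which program counted reads, with which annotation and strand setting, is not stated in what was used here. The authors deposited a table of estimated counts per gene for 32 libraries, not scaled between them. Of its 1775584 cells, 12% had a form that a spreadsheet gives to decimals it misreads, with digit-grouping marks, clock times or day fractions. Fixed rules turned them back, and values were rounded to whole numbers. In 0.21% of cells 2 readings were possible and the one nearer the gene's median was taken; among the 320 cells of the 10 proteases, 111 had such a form and 0 had 2 readings. Because such cells are not plain counts, limma-voom was used rather than a count model.

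The fit used limma 3.58.1 in R 4.3.3, TMM factors by own code (trims of 30% for log ratios and 5% for mean levels), a prior count of 0.5, and a filter. Genes needed, in 8 libraries or more, the CPM that equals 10 counts at median depth, and 15 counts in all, which left 14903. Each group had its own mean, and the 32 libraries shared 1 spread per gene. The contrasts were 4 between 2 groups and the interaction. The fit was tested on simulated data. Depth ran from 3851626 to 34370179 counts per library, and 1 CPM stood for about 3.85 counts in the shallowest. No columns belonged to other samples (0).

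The members and gene lists were chosen with earlier results of these data known, and list counts support nothing by themselves. All 10 members are named in every contrast. From each list up to 4 genes of smallest unadjusted p are named and from marker lists up to 3, and for likeness the 3 genes of highest Pearson correlation at a mean of at least 1 CPM, predicted genes left out. Some of these are not reported here. Positions are 1-based on GRCm38 from GENCODE, in which 55227 of 55487 identifiers were found. Promoters are from RefSeq. Alternatives were another scaling or none, other filters, blocks for replicate and library number, library numbers 1 to 16 or 17 to 32 alone, omission of each library, 2 groups fitted alone, sample quality weights, limma-trend, a fold-change threshold, unrounded values and the other reading of doubtful cells.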

Additional observations from a re-analysis of the deposited data

Results flagged for a closer look

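In 40 groups of 8 libraries (10 proteases in 4 groups), a test for a single library far from the rest at the 95% level picked out 2, and chance alone picks about 1 in 20. Ctsa in FAAH S268D on NASH-AA had a lowest value of 127 CPM in replicate 5, against 147 CPM for the next. Ctsz in WT on NASH-AA had a lowest value of 199.9 CPM in replicate 8, against 271 CPM for the next, and without that library Ctsz passed between genotypes on NASH-AA at -0.34 ± 0.08 (adjusted p = 0.0208, limma-voom).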

How the results depend on the processing

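Of the 5 proteases lower in FAAH S268D on NASH, 5 passed under median-of-ratios scaling, no filter on low counts, a stricter filter, limma-trend, unrounded values, the other reading of doubtful cells and a block for library number. The share of all genes was 9.39% with median-of-ratios scaling, 3.57% with no filter and 10.6% with the stricter filter. The count became 0 with the 2 groups fitted alone, 0 in libraries numbered 17 to 32 alone (fewer libraries), and 0 in a test against a 1.2-fold change. It was 7 with plain CPM, beside 16.2% of all genes, and 6 with sample quality weights, beside 13.2% (1968 genes). Leaving out 1 library gave 4 to 6: Ctsd was lost without replicate 2, 3 or 4 of FAAH S268D or replicate 7 of WT on NASH, and Ctsz was gained without replicate 5 of FAAH S268D. Between genotypes on NASH-AA the count rose from 0 to 5 with the 2 groups fitted alone, beside 4.13% of all genes. It rose to 5 with quality weights, with 0 to 1 on leaving out a library. For the WT diet comparison it rose from 0 to 4 with plain CPM (Ctsa, Ctsb, Ctsd and Lgmn), beside 11.3% of all genes, 92.6% of those being lower. It rose to 4 with quality weights, with 0 to 4 on leaving out a library. The counts over all genes with quality weights rose too in these 2 comparisons and are given below. The cause was not tested. For the diet comparison in FAAH S268D and the interaction it stayed at 0 in the alternatives run.

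Replicate numbers did not pair the libraries: over 48 pairs with the same number the deviations from group means correlated between -0.38 and 0.33, with a median of 0.0049, 13 pairs were over 0.1, and 6 of 32 libraries correlated best with their own number. With the replicate block, the same count of 5 proteases passed between genotypes on NASH, beside 961 genes (6.45%), and 0 in the other comparisons. Under that block the genes past the threshold numbered 17 for the WT diet, 8 for the FAAH S268D diet and 63 between genotypes on NASH-AA.

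The counts over all genes moved more. For the diet in WT, 657 became 1680 with plain CPM, 182 with no filter, 0 and 163 in the lower and upper library numbers alone, 1090 with 2 groups fitted alone, 3757 with quality weights, 251 with limma-trend and 1 against a 1.2-fold change, and 64 to 2192 on leaving out a library. With plain CPM, 92.6% of those calls were lower, against 67.3%. For the diet in FAAH S268D, 14 became 25, 6, 0 and 371, 4, 1060, 39 and 1 in the same order, and 6 to 370. For genotype on NASH, 1370 became 2411 with plain CPM, 876 and 20 in the 2 ranges of library numbers, 73 with 2 groups fitted alone and 45 against a 1.2-fold change, and 492 to 2642. For genotype on NASH-AA, 98 became 19 and 41 in the 2 ranges, 615 with 2 groups fitted alone, 756 with quality weights and 24 against a 1.2-fold change, and 66 to 186.

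Signs turned only for values that had not passed. With plain CPM these were Ctsh (-0.032) and Ctsl (-0.064) for the WT diet and Ctsh (-0.10) and Ctsl (-0.085) for genotype on NASH; plain CPM shifted the median of all genes by -0.12 and -0.14 there. In libraries 1 to 16 alone they were Ctsa (0.035) and Ctsz (0.080) for the WT diet, and Ctsb (0.035), Ctsh (-0.0084), Ctsk (0.071) and Ctss (0.0098) for the FAAH S268D diet. In libraries 17 to 32 alone they were Ctsc (0.0045) for the WT diet, Ctsl (0.018) for the FAAH S268D diet, Ctsh (-0.18) and Ctsl (-0.046) for genotype on NASH, and Ctsd (-0.015) and Ctss (-0.022) for the interaction. With quality weights they were Ctsz (0.0045) for the WT diet, Ctsl (0.056) for the FAAH S268D diet, Ctsh (-0.036) and Ctsl (-0.0063) for genotype on NASH, and Ctsl (0.0080) on NASH-AA. With 2 groups fitted alone Ctsz was at 0.00039 for the WT diet. Leaving out a library moved Ctsz between -0.036 and 0.056 for the WT diet, Ctsl between -0.065 and 0.020 for the FAAH S268D diet, and Ctsl between -0.046 and 0.0082 for genotype on NASH-AA. Depth limits Ctsk, with 6 to 79 reads a library, most.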
